A study of Ascaris suum with 28 samples.

Results

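The subject is the step from the zygote of the last uterus region to the 1-cell embryo in Ascaris suum, the large roundworm of pigs, before the first cleavage. The samples were chosen by stage and preparation from their labels, not by any measured value, and are 4 of the 28 samples of the series. Of these, 2 are poly(A) RNA libraries, from zygotes of uterus region 4 and from embryos kept for 24 h, and 2 are polysome gradients of the same stages, on day 0 and day 1. Each gradient was deposited as a free, a middle and a heavy fraction, so 8 columns of values were compared for 15399 gene identifiers. There was 1 library for each stage and preparation.

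All worms came from a North American wild population, and no genotype, transgene or drug treatment separates the groups. Zygotes of region 4, which the labels also call 0 hr embryos, were taken from the uterus after sodium hydroxide treatment and stored cold in acid buffer. The embryos were such zygotes incubated at 30 °C for 24 h or 1 day. Per the labels' protocols the egg coat was removed at 4 °C over 180 min for zygotes and at 30 °C over 90 min for embryos, so stage and coat removal cannot be told apart. Embryos were pooled from many females, and 1 sample therefore averages over many animals.

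An animal egg is loaded with RNA made by the mother, and the new embryo lives on these maternal RNAs until it degrades them and transcribes its own genome. In Ascaris the sperm and egg pronuclei stay separate for a long time after fertilization, while the eggshell forms and the zygote moves down the uterus. A fertilized egg does not cleave inside the female. In a sucrose gradient an RNA bound by many ribosomes sediments further than one bound by few, and one bound by none stays near the top. The labels do not say how many ribosomes the free, middle and heavy fractions stand for. The study's title names transcription in pronuclei and in embryos of few cells, and this step lies within that period.

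RPKM, the number of reads scaled by gene length and by the mapped reads of the library, gives the level of a transcript relative to the rest of its library. A higher value can therefore come from more copies of that RNA or from less of the others, and in bulk samples fewer cells and less RNA per cell cannot be told apart. Column totals were 440057 RPKM for zygote region 4 and 374861 for 24 h. For the gradients they ran from 236086 to 660503 on day 0 and from 252745 to 498294 on day 1. Between 5.25% and 13.3% of the identifiers were listed at 0 in these 8 columns. Identifiers are not paired with gene names here, so the embryo label could not be checked against marker genes and the roles of the genes below are not given.

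The day 0 middle fraction stood apart from the other 5 fraction columns of these stages. It held RPKM 10 or more for 40 of the 2398 genes that were under RPKM 1 in all 8 poly(A) libraries used from zygote region 1 to 116 h. The 64 h library was not used here or below. The other 5 columns held such levels for 3 or 4 of the 2398 genes. Counts over all 3 fractions and both fits are therefore also given without the middle fraction.

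Most RNAs differed by less than 2-fold between the last uterine zygote and the 1-cell embryo. Of 7945 genes with RPKM 10 or more in at least 1 of the 2 poly(A) libraries, 168 were at least 4-fold higher at 24 h (2.11% of genes compared) and 115 at least 4-fold lower (1.45%), on log2(RPKM + 1). The median difference of all 7945 genes was -0.08 log2 units, and the 5th and 95th percentiles were -1.55 and 1.41. Without regard to sign the median difference was 0.58. With a 2-fold limit the counts were 836 higher (10.5%) and 1191 lower (15.0%). These counts describe 2 libraries and carry no test.

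**Figure D1:**
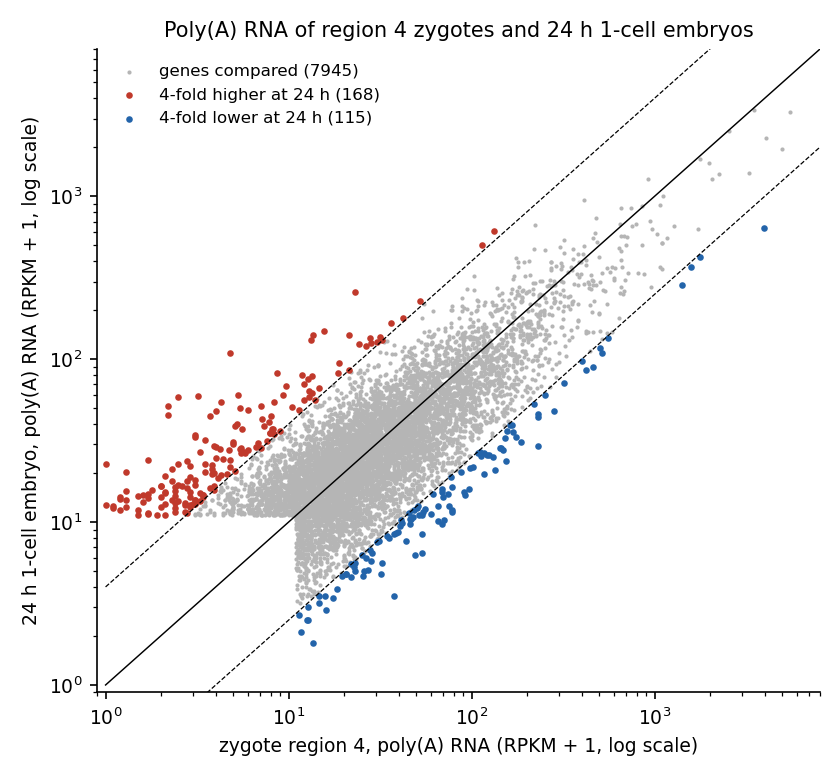
RPKM + 1 of each gene in the poly(A) libraries of zygote region 4 (x axis, log scale) and of 24 h 1-cell embryos (y axis, log scale); the solid line marks equality and the dashed lines a 4-fold difference. The 168 higher genes (red) lie mostly at low zygote levels, and the 115 lower genes (blue) extend up to the most abundant zygote RNAs.

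The higher genes were mostly at low levels in the zygote, which the minimum of RPKM 10 in either library favours. Their median was RPKM 2.8 in zygote region 4 and 23.2 at 24 h, where values ran from 10 to 611.3. Of the 168, 23 were under RPKM 1 in region 4, of which 2 were listed at 0, and 31 were already at RPKM 10 or more. The genes under RPKM 10 in region 4 passed the minimum only through their 24 h level, so they had to be higher. At 24 h 18 of the higher genes had reached RPKM 100. Together they made up 0.277% of the RPKM total in region 4 and 2.05% at 24 h.

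The lower genes were all at RPKM 10 or more in zygote region 4, because a lower gene can pass the minimum only through that library. Their median was RPKM 58.8 in zygote region 4 and 10.6 at 24 h, and 38 of the 115 were at RPKM 100 or more in region 4. Of the 806 genes at that level in the zygote, 4.71% were 4-fold lower, against 1.22% of the 6303 genes between RPKM 10 and 100. Most were reduced without being absent at 24 h, when 63 of the 115 genes were still at RPKM 10 or more and 1 was under RPKM 1. The lower genes took 4.44% of the RPKM total in region 4 and 1.03% at 24 h. The median difference of all genes shifted the same way with abundance. It went from 1.03 for genes that began between RPKM 1 and 10 to -0.58 for genes that began at 100 or more. The minimum of RPKM 10 favours higher values among the first of these. Region 4 values both sort the genes by level and enter the difference, so these shifts with abundance are descriptions.

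At the limit, the higher gene nearest to 4-fold went from RPKM 13 to 55.1 and the next gene outside it from 13.3 to 56.1. The nearest lower gene went from 40.2 to 9.3 and the next one outside from 82.8 to 20. The lists have no gap at their edges.

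The genes furthest apart in poly(A) RNA, among those with the same direction in every gradient fraction, were ASU_12228 and ASU_11227 upward and ASU_08091 and ASU_15373 downward. ASU_12228 was at RPKM 1.5 in zygote region 4 and 57.8 at 24 h. In the gradients it was at 1.1 (free), 2.2 (middle) and 1.1 (heavy) on day 0, and at 39.1, 40.8 and 10.8 on day 1. Every day 1 value of this gene lay above every day 0 value. After 24 h its poly(A) level was 22.8 at 46 h, 217.3 at 96 h and 353.8 in L1 larvae. ASU_11227 was at 3.8 in region 4 and 108.9 at 24 h, with 0.4, 6.3 and 1.1 in the free, middle and heavy fractions on day 0. On day 1 these were 1.0, 49.6 and 74.8, and its poly(A) level stayed at 114.2 at 46 h. On day 1 ASU_12228 was thus lowest in the heavy fraction and ASU_11227 lowest in the free fraction.

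Of the lower genes, ASU_08091 was at RPKM 36.7 in region 4 and 2.5 at 24 h. Its free, middle and heavy values were 2.2, 9.1 and 4.9 on day 0 and 0.2, 2.4 and 1.2 on day 1. Every day 1 value of this gene lay below the day 0 value of the same preparation. ASU_15373 was at 52.9 in region 4 and 5.5 at 24 h, and at 16.7, 39.2 and 18.2 on day 0 against 6.4, 9.8 and 6.7 on day 1. It was lower in each of the 3 fractions, with log2 differences of -1.26, -1.90 and -1.32. Against region 3, where it was at 17.7, the poly(A) difference of ASU_15373 was -1.52 and that of ASU_08091 -2.21, compared with -3.05 and -3.43 against region 4.

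**Figure D2:**
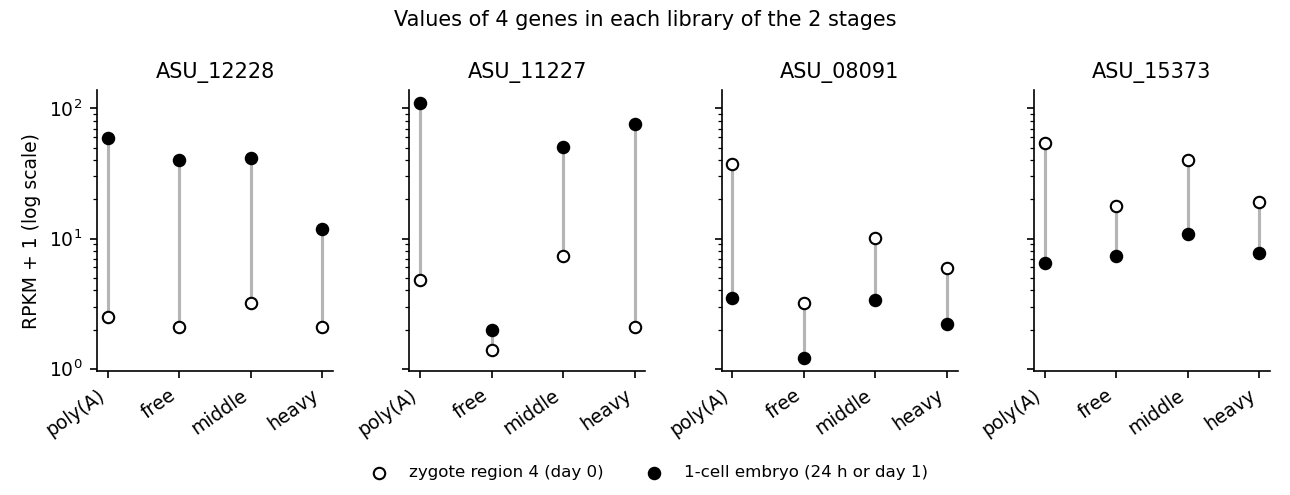
RPKM + 1 (y axis, log scale) of 4 genes in poly(A) RNA and in the free, middle and heavy gradient fractions (x axis), with open circles for zygote region 4 (day 0) and filled circles for the 1-cell embryo (24 h or day 1). ASU_12228 and ASU_11227 are higher in the embryo in all 4 preparations, ASU_11227 by little in the free fraction, and ASU_08091 and ASU_15373 are lower in all 4.

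The question was next whether gradients of the same stages, prepared apart from the poly(A) libraries, moved the same way. Of the 168 genes higher in poly(A) RNA, 147 were above their day 0 level in the free fraction (22.3% of all 7945 genes compared), 162 in the middle fraction (37.1%) and 165 in the heavy fraction (46%). In all 3 fractions together 140 of them, 83.3%, were higher, against 10.7% of all genes compared. Of the 115 genes lower in poly(A) RNA, 111 were lower in the free fraction (76.9%), 112 in the middle (62.5%) and 114 in the heavy (53.5%). In all 3 together 108 of these, 93.9%, were lower, against 37.7% of all genes. No gene of either list went the opposite way in all 3 fractions. Shares of all genes here and below are not matched for level. Most higher genes began under RPKM 10 and most genes compared did not. Genes that began between RPKM 1 and 10 had median differences of 0.08 (free), 0.58 (middle) and 0.78 (heavy). The 114 higher genes among them had 1.17, 1.73 and 1.73. Between RPKM 10 and 100 the medians were -0.60, -0.28 and -0.18, and 0.69, 1.56 and 2.23 for the 29 higher genes.

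Leaving the middle fraction aside, 144 of the 168 genes were higher in both the free and the heavy fraction (15% of all genes) and 110 of the 115 were lower in both (46%). Because most genes had lower RPKM in the free fraction of day 1, the background share for a lower value is large and the higher list is set against a stricter background than the lower one. The medians over all genes were -0.52 (free), -0.23 (middle) and -0.10 (heavy) log2 units. With each fraction centred on its median, 95.2% of the higher and 84.3% of the lower genes kept the direction in all 3, against 24.0% and 24.5% of all genes.

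The sizes were smaller in gradients than in the poly(A) libraries that chose the genes. For the higher genes the median log2 difference was 2.55 in poly(A) RNA, 1.14 in the free, 1.73 in the middle and 1.87 in the heavy fraction. For the lower genes it was -2.22 in poly(A) RNA and -1.34, -1.13 and -1.58 in the fractions. At least 2-fold in the same direction were 97 of the 168 higher genes in the free fraction (3.69% of all genes), 133 in the middle (6.62%) and 139 in the heavy (14.9%). Of the 115 lower genes, 84 were at least 2-fold lower in the free fraction (24%), 68 in the middle (12.3%) and 101 in the heavy (18%). A difference of at least 2-fold in all 3 fractions was reached by 66 of the higher and 50 of the lower genes, against 1.22% and 3.06% of all genes. In the free and heavy fractions alone the counts were 76 and 72, against 1.90% and 7.15%.

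**Figure D3:**
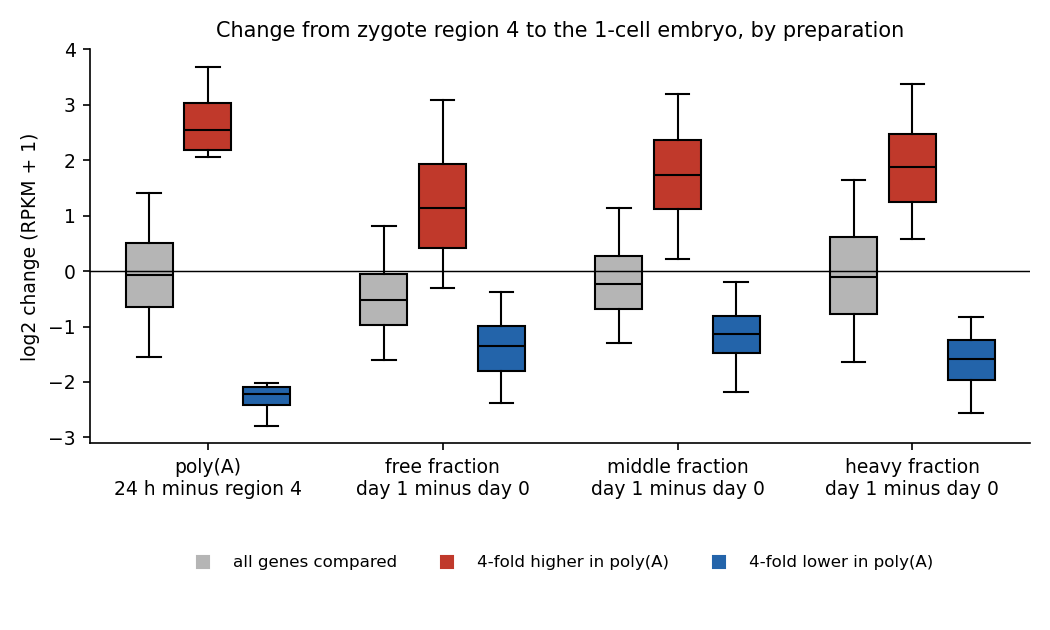
Log2 change of RPKM + 1 from zygote region 4 to the 1-cell embryo (y axis) in poly(A) RNA and in each gradient fraction (x axis), for all 7945 genes compared (grey), the 168 higher (red) and the 115 lower genes (blue); boxes give the quartiles and the median, whiskers the 5th and 95th percentiles. The lists were chosen on the poly(A) values, and in the fractions, which had no part in that choice, the red medians are 1.14, 1.73 and 1.87 and the blue ones -1.34, -1.13 and -1.58.

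Across all 7945 genes the poly(A) difference had a Pearson r of 0.578 with that of the free fraction, 0.647 with the middle and 0.769 with the heavy fraction. These values are across genes, which are not independent replicates, and the gradients and poly(A) libraries share gene length, base composition and stage. The fractions resembled poly(A) RNA more than each other: the r between free and heavy was 0.390 and that between middle and heavy 0.495.

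The RPKM of the higher genes in the heavy fraction, set against that in the free fraction, was greater on day 1 than on day 0. RPKM is relative within each fraction column, so this does not show where the copies of an RNA lay in the gradient. The median of heavy minus free over these genes was -0.21 log2 units on day 0 and 0.38 on day 1. The medians of all genes compared were -0.18 and 0.26. Taken gene by gene, the heavy change exceeded the free change in 116 of 168 higher genes, 69%, with a median of 0.75, against 68.4% and 0.47 for all genes. For the lower genes the median was -0.15, with the heavy change above the free change in 47 of 115. The share of higher genes is thus at the background and the size of their shift slightly above it. Whether this difference exceeds the error between gradients was not tested, as each day had 1 gradient.

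A test that used none of the poly(A) values compared day 1 with day 0 over the 6 fraction columns, with day and fraction as terms in limma. Its p-values measure the spread between fractions of a single pair of gradients, and they do not measure the spread between batches of embryos. Over 12202 genes 615 were called higher (5.04%) and 768 lower (6.29%) at an adjusted p under 0.05. The split was 501 and 263 after median-ratio scaling and 82 and 5 after quantile normalization. Of the 168 genes higher in poly(A) RNA 167 entered the fit, and 126 of them, 75.4%, rose, against 3.16% of all genes compared in poly(A) RNA. Of the 115 lower genes 90, 78.3%, fell, against 7.96%. No gene of either list was called in the opposite direction.

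The 4 genes named above were picked among genes with the same direction in every fraction, so their fitted values are descriptions with no test. ASU_12228 had a fitted change of 3.48 ± 0.38 log2 units over the fractions (SE) and ASU_11227 one of 2.83 ± 0.55. For ASU_08091 it was -1.47 ± 0.31 and for ASU_15373 -1.49 ± 0.35. The counts moved strongly with the processing. Without the middle fraction 79 of 161 higher genes (1.3% of all genes) and 33 of 115 lower genes (1.31%) were called. After quantile normalization the counts were 41 of 168 and 4 of 115, against 0.667% and 0.063% of all genes. Without the heavy fraction they were 48 of 164 and 23 of 115, against 0.806% and 1.16%.

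The series design text treats the poly(A) and polysome libraries of a stage as replicates, and a limma fit over 8 libraries of 4 stages followed that reading. It called 173 of 12961 genes higher (1.33%) and 33 lower (0.255%), against 839 and 877 after median-ratio scaling and 661 and 384 after quantile normalization. The poly(A) libraries that chose the higher and lower lists entered this fit, so its calls among those genes are no further evidence on them. Among genes past the threshold and lower in both preparations, the largest fitted decrease was that of ASU_09331, at -2.51 ± 0.44. This gene is on the lower list, so its fitted value is a description with no test. It went from RPKM 70.0 to 9.3 in poly(A) RNA and from 71.8, 60.3 and 23.6 in the free, middle and heavy fractions on day 0 to 16.2, 9.1 and 5.3 on day 1, lower in all 4 preparations. Each library moved the counts by more than 1.5 times in some direction. With the poly(A) value of region 4 left out there were 99 higher and 12 lower genes, with that of 24 h left out 29 and 91, with the day 0 polysome value left out 68 and 66, and with that of day 1 left out 361 and 23. With the middle fraction of every day left out of the polysome value, 68 genes were called higher and 6 lower.

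Each fraction was then compared with the same fraction of the day before, on its own. In the free fraction 62 of 5134 genes were at least 4-fold higher (1.21%) and 124 lower (2.42%). This split turned with the scaling, to 163 higher and 62 lower genes after median-ratio scaling and 204 and 51 after quantile normalization. Of the 62, 58 were also above region 4 in poly(A) RNA, where 36.3% of the 5134 genes were, and of the 124, 121 were below, against 63.3%. ASU_02390 was listed at 0 in the free fraction on day 0 and at 13.0 on day 1, and in poly(A) RNA it went from 0.3 to 19.4. ASU_03733 went from 66.9 to 5.7 in the free fraction and from 91.4 to 35.4 in poly(A) RNA. Its middle value went from 260.7 to 129.0 and its heavy value from 61.5 to 28.6, so the free difference was the largest of the 4. ASU_10349 was at 36 and 3.0 in the free fraction and at 49.5 and 12.7 in poly(A) RNA, again with the largest difference in the free fraction.

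In the heavy fraction 160 of 5482 genes were 4-fold higher (2.92%) and 145 lower (2.65%). All 160 were above region 4 in poly(A) RNA too, where 45.1% of the 5482 genes were, and 138 of them by at least 2-fold, against 9.19%. Of the 145, 143 were below, against 54.8%. The 160 shared 51 genes with the 168 higher genes of poly(A) RNA, 31.9% and 30.4% of the lists. A shared gene also had to pass the minimum RPKM in both preparations. Without that minimum, 77 of the 168 (45.8%) were at least 4-fold higher in the heavy fraction, against 2.29% of the 7945 genes. The median poly(A) difference of the 160 was 1.57 log2 units, under 4-fold. ASU_00111 was at 6.4 in the heavy fraction on day 0 and 153.3 on day 1, and at 14.7 and 147.8 in poly(A) RNA. Its free and middle values, 15.8 and 21.3 on day 0 and 65.4 and 84.2 on day 1, differed less. ASU_14535 went from 46.5 to 3.7 in the heavy fraction but from 78.1 to 41.9 in the free fraction. ASU_00539 went from 25.5 to 1.7 in the heavy fraction and from 47.7 to 36.8 in the free fraction, while its poly(A) level went from 50.3 to 23.0. Both genes were lowest in the heavy fraction on day 1, and differed least in the free fraction.

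The middle fraction differed from the others in the downward direction. Of 8034 genes 99 were 4-fold higher (1.23%) and 146 lower (1.82%). Of the 99, 98 were above region 4 in poly(A) RNA, against 45.2% of the 8034. Of the 146, 74 were below, 50.7% against 54.4%, and their median poly(A) difference was -0.04. ASU_05195 was at 0.5 in the middle fraction on day 0 and 27.6 on day 1, with 0.7 and 13.0 in poly(A) RNA. ASU_15378 was at 1.2 and 32.3 there, and its free value stayed at or below 0.2 on both days.

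Of the 146 genes lower in the middle fraction, 15.1% were at least 2-fold lower in poly(A) RNA, as were 14.8% of the 8034 genes compared. ASU_10572 was at RPKM 7820.7 in the day 0 middle fraction and 24.8 in that of day 1, but at 9.1 and 8.6 in poly(A) RNA, 43.6 and 60.5 in the free fraction and 86.9 and 100.2 in the heavy fraction. A single column set its change. ASU_13941 was at 139.6 and 0.7 in the middle fraction and at 1.1 and 0.6 in poly(A) RNA, and its free value went from 10.5 to 1.4. Of the 146 genes 35 were under RPKM 1 in all 8 poly(A) libraries up to 116 h, and no gene lower in the free or heavy fraction was. The part of the day 0 middle library in these calls was not tested.

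RNA levels already differed between the libraries of the uterus regions, with 1 library for each region. Whether they differed by more than libraries of the same region would was not tested. The higher genes had medians of RPKM 1.9, 2.2, 2.3 and 2.8 in regions 1 to 4, and 164 of the 168 were above every region at 24 h, against 39.7% of all genes. Against region 3 in place of region 4, 145 of the 168 were still 4-fold higher, as were 7.44% of all genes. The shares above every region and against region 3 use the 24 h library that chose the genes, so high values were built in. Of the 168 genes, 34 had been at RPKM 10 or more in at least 1 of regions 1 to 3.

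For the lower genes the choice of region mattered more to the 4-fold count. Their medians were 47.7, 36.1, 32.5 and 58.8 in regions 1 to 4, and for 74 of the 115, 64.3%, region 4 was the highest of the 4 regions, as it was for 62.2% of all genes. Of the 115, 113 were below every region at 24 h, against 24.9%. The list was chosen on its 24 h values, which raises this share and those against region 3. Against region 3, 38 of the 115 were 4-fold lower and 99 at least 2-fold lower, against 2.27% and 10.6% of all genes. With region 3 as the reference for all genes, 589 genes were 4-fold higher and 249 lower at 24 h. Of those larger lists, 45.2% were higher and 43.0% lower in all 3 fractions, against 11.3% and 35.3% of all genes. With region 4, the stage of the day 0 gradient, the shares were 83.3% and 93.9%, against 10.7% and 37.7%.

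At 46 h, when the labels give 1 to 2 cells, most of the 4-fold differences from region 4 were still present. Of the 168 higher genes 144, 85.7%, were still at least 4-fold above region 4 (3.31% of all genes compared), 22 lay between 2- and 4-fold and 2 under 2-fold. Of the 115 lower genes 113, 98.3%, were still 4-fold below (5.71%) and the other 2 between 2- and 4-fold. The 46 h and 24 h differences share the region 4 library, so these counts describe persistence and add no test. The 24 h, 46 h and later libraries also shared coat removal at 30 °C over 90 min, unlike region 4. Persistence of a stage difference and of a coat removal difference cannot be told apart. From 24 h to 46 h itself 8 of 7522 genes were 4-fold higher and 6 lower, and the median absolute difference was 0.294 log2 units. It was 0.58 from region 4 to 24 h, over a similar time, and 0.662 from region 3 to region 4.

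Within that interval most genes of the lists went further the same way. The higher genes had a median of RPKM 28.1 at 46 h against 23.2 at 24 h, and 111 of 168 were further up, 17 of them by 2-fold or more, where 47.8% of all genes were up and 1.22% by 2-fold. The lower genes had a median of 6.7 against 10.6, and 107 of 115 were further down, 22 of them by 2-fold or more, where 51.4% of all genes were down and 3.03% by 2-fold. None of the 115 recovered by 2-fold, and 8 of the 168 receded by 2-fold.

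The exceptions at 46 h were few. ASU_14697 was at RPKM 3.8 in region 4, 23.2 at 24 h and 4.0 at 46 h, and it was higher on day 1 than on day 0 in the heavy fraction, 18.5 against 3.0, but not in the free fraction, 1.1 against 1.8. ASU_09157 was listed at 0 in regions 2 to 4, was at 11.8 at 24 h and at 2.9 at 46 h. Its free, middle and heavy values were 0.6, 2.8 and 1.7 on day 0 and 0.8, 0.7 and 2.4 on day 1, so no fraction showed the poly(A) difference. It and ASU_00629, named after its values were seen, were the only higher genes at least 2-fold lower in a fraction, in both cases the middle one. ASU_00629 was at 20.8 and 6.9 there.

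Other genes were far higher after 24 h. ASU_04540 was at RPKM 0.7 in region 4 and 10.4 at 24 h, then at 39.3 (46 h) and 59.0 (96 h). ASU_09076 was at 1.8, 22.7, 75.5 and 245.3 in the same libraries and at 476.3 in L1 larvae, then at 0 in L2 larvae. In the day 3 heavy fraction ASU_09076 was at 328.0, against 33.5 on day 1 and 8.4 on day 0.

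**Figure D4:**
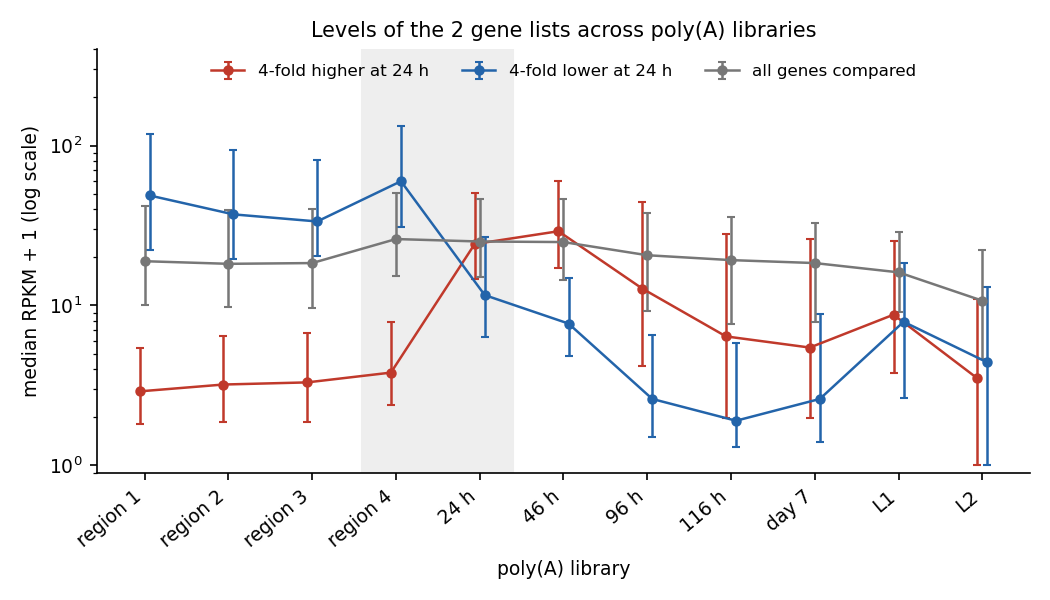
Median RPKM + 1 with quartiles (y axis, log scale) of the 168 higher (red), 115 lower (blue) and 7945 compared genes (grey) in 11 poly(A) libraries in order of development (x axis); the shaded pair is region 4 and 24 h. The red median goes from 2.8 to 23.2 RPKM across the shaded step, reaches 28.1 at 46 h and is 5.4 at 116 h, while the blue median goes from 58.8 to 10.6 and is 0.9 at 116 h.

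The later course split the higher genes. Of the 168, 110 had their highest level at 24 h or 46 h among the 7 poly(A) libraries used from 24 h to L2, and 58 had it at 96 h or after. The 64 h library is not among the 7. The list was chosen for high 24 h values, which favours an early peak and a later fall, and the share of all genes with an early peak was not computed. From 24 h to 116 h, 53.0% of the 168 fell at least 4-fold, against 21.6% of all genes compared. In 86 of the 110 the level at 116 h, with 32 to 64 cells, was at least 4-fold below that peak. The medians of these 86 were RPKM 2.85 (region 4), 24.65 (24 h), 30.5 (46 h), 4.1 (96 h) and 1.25 (116 h). The 58 genes with a late peak had 2.4, 20.9, 28.75, 52.7 and 52.95 in the same libraries. The 2 classes had similar medians at 24 h and 46 h. They differed afterwards, which their definition by the peak requires. Over the whole list 47 genes were still 4-fold above region 4 at 116 h, against 4.42% of all genes. In every one of the 6 libraries used after 24 h 10 of them were, against 0.352%.

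Most lower genes were still low in later libraries. All these differences share the region 4 library. Of the 115, 66 were 4-fold below region 4 in every one of the 6 libraries used after 24 h, against 2.95% of all genes. At 116 h 60 were under RPKM 1, against 11.9%. Their median was 0.9 at 116 h, 1.6 on day 7, 6.9 in L1 and 3.4 in L2. In L1, 92 of the 115 were at least 2-fold below their region 4 level, against 3392 of all 7945 genes compared. The other 23 of the 115 were back within 2-fold of that level or above it. ASU_08091 was one of these, at RPKM 26.7 on day 7 and 34.5 in L1 after 0.9 at 116 h, and it was at 0.7 in L2. ASU_15373 was at 13.5 in L1 and ASU_09331 at 24.1, neither within 2-fold of region 4.

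Gradients of days 0, 1, 3, 5 and 7 give the course in libraries other than the poly(A) ones. In that order the medians of the higher genes in the heavy fraction were RPKM 1.3, 8.85, 10.35, 7.6 and 6.5. In the middle fraction they were 3.75, 14.15, 22.25, 12.9 and 11.7. The lower genes had 18.2, 6.1, 2.4, 3.2 and 4.0 in the heavy fraction and 33.9, 13.5, 5.0, 1.9 and 2.4 in the free fraction. By day 1 the heavy median of the lower genes differed more than the free median, with median log2 differences of -1.58 and -1.34, where those of all genes were -0.10 and -0.52. Totals of the fraction columns differed between days, from 236086 to 918364 RPKM, so levels of different days are set side by side only as deposited.

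**Figure D5:**
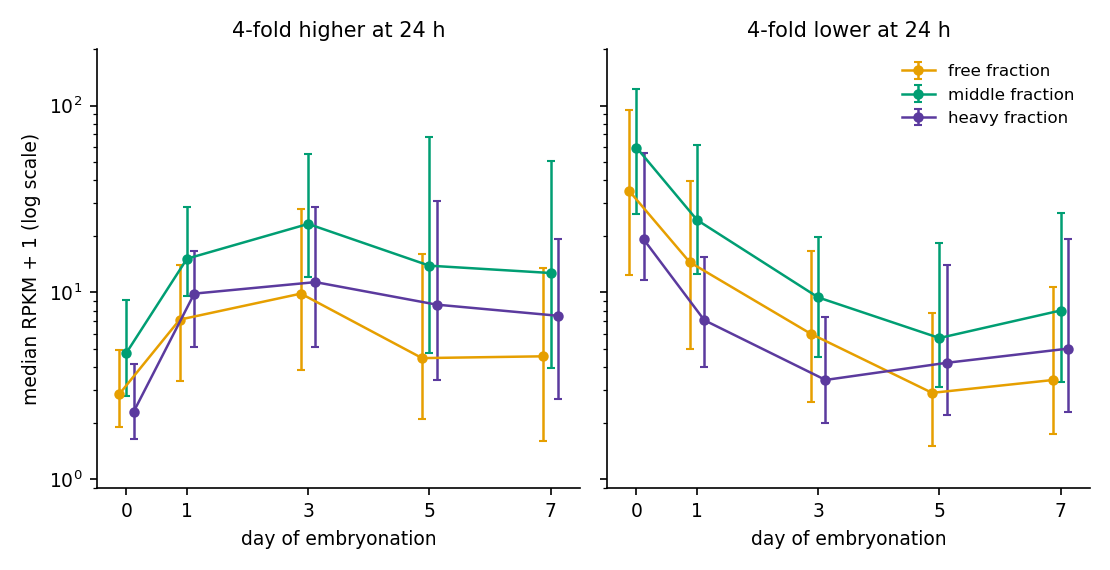
Median RPKM + 1 with quartiles (y axis, log scale) of the 168 higher (left) and 115 lower genes (right) in the free, middle and heavy gradient fractions on days 0, 1, 3, 5 and 7 (x axis). In each fraction the higher genes step up from day 0 to day 1 and their median is highest on day 3, and the lower genes step down on day 1 and again on day 3.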

How the data were processed

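RNA of Ascaris suum was sequenced from poly(A) libraries and polysome gradient fractions. The authors deposited 1 table of RPKM values with 1 decimal, per its header 1 column for each stage or fraction. The submitters' processing notes list Bowtie 0.12.7. No source used here names the genome build, the annotation or the read counter. Depth is unknown, so no counting interval is given. Columns were matched to samples by name. Of 28 columns 26 were used, and 2 (oocyte and 64 h), whose names fit several samples, were not used here.

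Differences were taken on log2(RPKM + 1), which understates the change of low genes. With 1 library a group, genes were called at 4-fold with RPKM 10 in at least 1 library. Tests used limma 3.58.1 in R 4.3.3 with an intensity trend and Benjamini-Hochberg adjustment over all genes with RPKM 1 in at least 2 columns: a fit of stage and preparation over 8 libraries (3 residual degrees of freedom; the polysome value was the mean of 3 fractions) and, added after the values were seen, a fit of day and fraction over 6 columns (2 residual degrees of freedom). Both fits were run on simulated data with independent noise of a single spread. Such data cannot show how the fits behave when the fractions of a gradient share error. Nothing says that libraries came from separate cultures.

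Named genes are the 2 with the largest log2 change in each direction: in poly(A) RNA among genes of the same sign in all fractions, in each fraction among genes of the same sign in poly(A) RNA, in the stage fit, and from 24 h to 46 h among the higher genes. Members and lists were chosen with earlier results of these data known. The 20 gene lists planned by product name were not tested, as identifiers are not paired with names.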

Additional observations from a re-analysis of the deposited data

How the results depend on the processing

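No analysis paired by replicate number was possible because the labels give none; fraction and preparation were terms of the fits. The counts of genes 4-fold higher and lower at 24 h were 51 and 52 with a pseudocount of 5, 589 and 249 with region 3 as the reference and 836 and 1191 at 2-fold; without a minimum RPKM 258 were higher. The direction shares over 3 fractions became 45.2% and 43.0% with region 3, against 11.3% and 35.3% of all genes. They were 89.7% and 91.2% after median-ratio scaling and 84.3% and 84.1% after quantile normalization. Shares kept at 46 h lay between 78.1% and 100% in the 4 alternatives tried. Higher and lower counts per fraction with a pseudocount of 5 were 15 and 24 (free), 28 and 77 (middle) and 66 and 42 (heavy). The free split turned with scaling, to 163 and 62 (median ratio) and 204 and 51 (quantile), and 251 genes were higher in the heavy fraction after median-ratio scaling. The stage fit called 8 and 0 genes with a pseudocount of 5 (969 and 1261 at an unadjusted p under 0.05), 21 and 0 without a minimum RPKM (1360 and 999), 661 and 384 after quantile normalization, 839 and 877 after median-ratio scaling, 1320 and 1938 from the 8 columns of the 2 stages alone, and 68 and 6 without the middle fraction. Leaving out each of the 4 libraries gave 29 to 361 higher and 12 to 91 lower, the lowest higher count without 24 h poly(A) and the lowest lower count without region 4 poly(A), the lone library being assumed to vary like the others. The fit over fractions called 352 and 393 with a pseudocount of 5, 77 and 12 without a minimum RPKM, 82 and 5 after quantile normalization, 263 lower after median-ratio scaling, 476 lower without the free fraction, 277 and 125 without the middle and 138 and 104 without the heavy. In none of these fits over fractions was a listed gene called against its poly(A) direction. The same was true of the stage fits, but these hold poly(A) values that chose the lists, so it adds no evidence there. The causes were not tested. Scaling moved the median difference of all genes in the free fraction from -0.52 to -0.28 (median ratio) or -0.20 (quantile). The poly(A) difference of ASU_12228 was 3.27 with a pseudocount of 5.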

Other observations

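The 40 genes at RPKM 10 or more in the day 0 middle fraction, and under 1 in all 8 poly(A) libraries up to 116 h, were followed through the gradients after their values were seen. Their median was RPKM 2.3 (free), 19.5 (middle) and 0.95 (heavy) on day 0 and 1.25, 0.4 and 0.5 on day 1. On day 3 it was 1.05, 10 and 0.25, on day 5 it was 0, 0 and 8.75, and on day 7 it was 25.35, 36.55 and 44.3. High medians thus occurred in the day 0 middle, day 3 middle and day 5 heavy columns and in all 3 columns of day 7. In poly(A) RNA the day 7 median was 0 and the highest day 7 value 3.1, while 3 of the genes were at RPKM 10 or more in L1 and 7 in L2. All 2398 genes made up 0.398% of the day 0 middle total and 0.228% of that of day 1, and 1.02% (free), 1.30% (middle) and 1.68% (heavy) on day 7.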
